A study of Homo sapiens with 4 samples.

Results

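The Hippo pathway genes described here are 31 named components: the core kinases and their adaptors, the co-activators YAP and TAZ with the TEAD factors, the WWC and angiomotin scaffolds, and upstream kinases, phosphatase-complex subunits and cadherins. They were picked by name from the rows of 1 expression table after versioned Ensembl identifiers had been paired with gene symbols. All 31 were found among its 25609 genes. RNA came from HK-2, an immortalised line of human proximal tubule epithelium, wild type in all samples. The groups were 2 control libraries and 2 libraries of cells exposed to transforming growth factor β1 (TGF-β1), a cytokine that drives matrix production in tubular epithelium, at 20 ng/mL for 24 h. Serum had been withdrawn for 24 h beforehand, and 4-thiouridine (4SU), a uridine analogue incorporated into new RNA, was present at 100 μM over the last 20 h. The labels carry the same treatment text for every sample, so it was taken that the controls lacked TGF-β1 alone. HK-2 is 1 cultured line, and the labels do not say whether replicates were separate cultures. P-values therefore measure only how far these libraries spread, and that spread may be technical.

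In the Hippo pathway, the kinases MST1 and MST2 (STK4 and STK3), with the scaffold SAV1, activate LATS1 and LATS2, which act with MOB1 adaptors. LATS kinases phosphorylate YAP and TAZ, which are then held in the cytoplasm or degraded. Unphosphorylated YAP and TAZ enter the nucleus and switch on genes through TEAD factors. Much of this control acts on proteins, which RNA levels do not show. The pathway limits organ size, and YAP and TAZ activity has been tied to fibrosis in the kidney.

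Levels are given in the authors' RPKM, reads per kilobase of exon divided by a measure of library size, which allows genes to be set side by side. Reads recovered from those values came to 3346290 and 4816421 in control libraries 1 and 2, and to 4655935 and 5472436 in TGF-β1 libraries 1 and 2. The authors' scaling used 1.01 and 0.976 times these totals in the controls, but 0.893 and 0.860 times in the TGF-β1 libraries, which raises RPKM in the TGF-β1 libraries relative to scaling by the totals. Of the 16590 genes tested, 67.1% of those called changed were higher with TGF-β1. That share was 42.4% with scaling by total reads, which moved the median log2 change of all genes by -0.15. The established TGF-β1 response genes PMEPA1, SMAD7 and SKIL were called higher, by 3.19, 2.05 and 1.16 on the log2 scale. Of 11 kidney epithelial markers 10 were measured, with summed levels of 312 to 438 RPKM. CUBN and ANPEP, proteins of the mature proximal tubule, reached no more than 0.0457 and 0.222 RPKM. GGT1, from the same list, went the other way, at 16.8 to 20.4 RPKM over the 4 libraries. Fibroblast markers summed to 7.14 to 13.2 RPKM, most of it LUM, and leukocyte markers to 1.03 to 2.03 RPKM. The kidney sum was higher and the fibroblast sum lower in both TGF-β1 libraries than in either control, and their part in the results was not tested. The endothelial markers CDH5 and VWF had 0 reads in all 4 libraries. In bulk RNA, fewer cells of a kind and less RNA per cell cannot be told apart.

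The title of the series names miR-17 and miR-20a as repressors of FRMD6, whose protein carries a FERM domain and acts above MST1 and MST2, so the Hippo genes were searched for the same seed match. MicroRNAs guide repression mainly by pairing of their bases 2 to 8, the seed, with a 3′ UTR. The 2 mature sequences, from RefSeq on GRCh38.p14, share 1 seed, shown in capitals.
miR-17-5p: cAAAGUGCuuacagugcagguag
miR-20a-5p: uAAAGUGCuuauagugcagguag
The complementary word GCACTTT occurred in the longest annotated 3′ UTR (GENCODE 29, hg38) of 8 of the 31 genes, or 25.8%, against 24.9% of 11538 tested genes with a UTR. Long UTRs hold more words, and these 31 UTRs were long, with a median of 2977 bases against 1326. Within the middle range of their lengths, 1363.5 to 4423.5 bases, 2 of 15 held the word (13.3%), against 34.6% of 4487 tested genes in that range. Matches lay in PTPN14 and TAOK1, with 2 each, and in SAV1, STK4, WWC1, WWC2, TAOK3 and SLMAP. Of these 10 matches 1, in TAOK3, was followed by an adenine, the base linked to stronger repression through such matches. SAV1 and WWC1, lower with TGF-β1, and PTPN14, higher, had an unadjusted p under 0.05 by limma, and the other 5 genes with a match did not. Such a p was reached by 45.2% of the 31 genes and 25.0% of all tested genes. A link between match and response was not tested. The match of SAV1 and that of TAOK3, for the following adenine, are printed as examples, with the seed match in capitals.
SAV1, chr14:50632405-50632433, minus strand: ttctgatggaaGCACTTTgaatgtttgca
TAOK3, chr12:118149883-118149911, minus strand: ttcttttgcatGCACTTTaaaaacaaaac
A match is a description of these letters and not a measured site.

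LATS2, AMOTL2 and PTPN14 are also counted among common YAP and TAZ target genes, which makes their promoters relevant. RefSeq start-site windows, from 250 bases before to 50 after the start, were held for 26 of the 31 genes. The TEAD word GGAATG, read on both strands, stood in 8 of their 42 windows (19.0%), against 14.0% of 35116 windows of all genes. The genes with it were AMOTL2, LATS2, PTPN14, SLMAP, TAOK3, WWC2 and YAP1. The SMAD word CAGAC, on both strands, stood in 16 of the 42 windows (38.1%), against 45.3% of all windows, and the palindrome GTCTAGAC in 0 of 42, against 0.202%. For these target genes the windows that hold the word are shown on the gene's strand, with the TEAD word or its reverse complement in capitals. AMOTL2 has a second start-site window, at chr3:134375368-134375667, which holds no TEAD word and is not printed. In the printed windows the TEAD word begins 69 bases before the start in AMOTL2, 200 bases before it in PTPN14 and at offset 9 after it in LATS2.
AMOTL2, chr3:134374398-134374697, minus strand, GRCh38.p14: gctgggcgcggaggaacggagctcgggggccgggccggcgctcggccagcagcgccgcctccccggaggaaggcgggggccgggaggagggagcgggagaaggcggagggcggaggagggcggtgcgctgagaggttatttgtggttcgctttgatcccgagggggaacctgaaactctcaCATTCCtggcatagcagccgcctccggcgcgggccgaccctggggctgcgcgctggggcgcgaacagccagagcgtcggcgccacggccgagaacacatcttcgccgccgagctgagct
PTPN14, chr1:214551553-214551852, minus strand, GRCh38.p14: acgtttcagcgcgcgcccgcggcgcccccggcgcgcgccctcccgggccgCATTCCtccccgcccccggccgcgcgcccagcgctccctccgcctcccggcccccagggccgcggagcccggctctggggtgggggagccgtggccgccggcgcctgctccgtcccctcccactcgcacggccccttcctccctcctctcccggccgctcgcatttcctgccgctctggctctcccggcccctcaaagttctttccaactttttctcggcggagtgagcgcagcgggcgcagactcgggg
LATS2, chr13:21061537-21061836, minus strand, GRCh38.p14: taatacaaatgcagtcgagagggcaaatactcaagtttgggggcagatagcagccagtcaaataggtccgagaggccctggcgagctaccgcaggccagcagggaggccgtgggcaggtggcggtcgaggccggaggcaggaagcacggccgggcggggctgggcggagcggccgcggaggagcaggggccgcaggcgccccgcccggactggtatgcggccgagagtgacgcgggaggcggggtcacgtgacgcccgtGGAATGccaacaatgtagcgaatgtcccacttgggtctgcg
With TGF-β1, AMOTL2 fell, PTPN14 was 27.3 and 30.2 RPKM against 21.6 and 22.5, and LATS2 was 12.5 and 14.4 RPKM against 15.9 and 15.2.

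TGF-β1 against control is the comparison the design holds, and for these genes it asks how the RNA of the Hippo machinery responds in tubular cells. MAP4K4, a kinase that can phosphorylate LATS1 and LATS2 in parallel to MST1 and MST2, rose 2.7-fold. WWC1 (KIBRA), a scaffold that promotes LATS activation, fell to 0.595 of its control level. AMOTL2, an angiomotin that binds and restrains YAP, fell to 0.737 of its control level. No core kinase, co-activator or TEAD factor passed the test in the main analysis, nor did the cadherins. The test was limma on log2(RPKM + 0.5) with Benjamini-Hochberg adjustment over all 16590 genes, and an adjusted p under 0.05 is called a change. It called 3 of the 31 genes (9.68%), 1 higher and 2 lower, against 9.12% of all tested genes, 6.12% higher and 3.0% lower. The share called is thus close to that of all genes. With limma voom on recovered reads, STK4, SAV1, LATS2, MOB1A, MOB1B, TEAD1 and TEAD4 were also called lower and FAT1 higher. That alternative called 3975 of all tested genes, against 1513 in the main analysis.

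Every one of the 31 genes had a mean of at least 0.5 RPKM, the minimum for testing, and none had a library without reads, with 23 to 2671 reads per gene and library. Their median level was 7.98 RPKM, against 3.26 RPKM over all tested genes. The median log2 change was 0.02, against 0.03 for all genes, and the median size of change was 0.25, against 0.26. At an unadjusted p under 0.05 stood 14 of the 31 (45.2%), 8 higher and 6 lower, against 25.0% of all tested genes. In 20 of the 31 (64.5%) both TGF-β1 libraries lay on 1 side of both controls, 9 higher and 11 lower, against 54.1% of all tested genes. The part that the higher level of these genes plays in those shares was not tested.

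**Figure D1:**
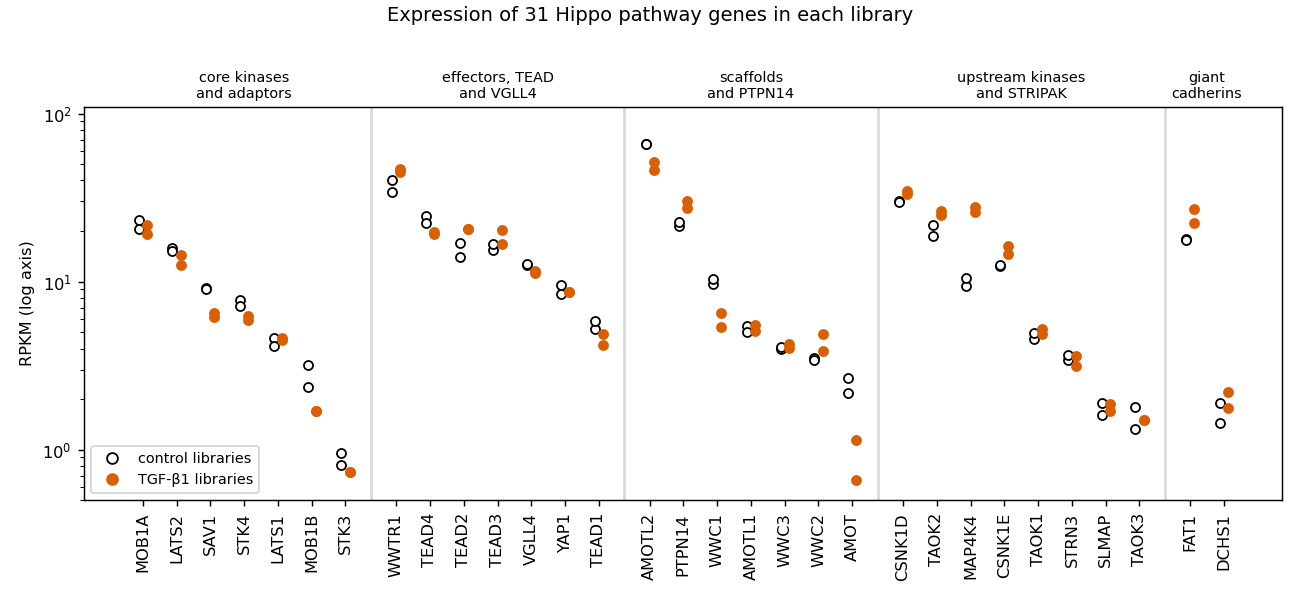
Level of each of the 31 genes in each library, in RPKM on a log axis, grouped by role and ordered by mean level within a role. Open points are the 2 control libraries and filled points the 2 TGF-β1 libraries, so each gene has 4 points. AMOTL2 is highest, at 46.1 to 66.2 RPKM, and STK3 has the lowest mean, at 0.738 to 0.954 RPKM. MAP4K4 shows the widest gap between groups with TGF-β1 higher, and AMOT the widest with TGF-β1 lower.

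The core cassette comprised 7 genes, and none was called in the main analysis. In 5 of the 7 (STK3, STK4, SAV1, LATS2 and MOB1B) both TGF-β1 libraries lay below both controls, and in none did both lie above. Over all tested genes 54.1% did not overlap in either direction, and 4080 of 16590 lay lower. The median log2 change of the 7 was -0.20, against 0.03 over all tested genes.

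SAV1, on chromosome 14 (50632058 to 50668331), encodes the adaptor that joins MST1 and MST2 to LATS. It stood at 9.19 and 9.09 RPKM in the controls and at 6.52 and 6.17 RPKM with TGF-β1 (9.14 ± 0.0738 against 6.34 ± 0.248, SD, n = 2 each). The groups were apart by far more than their spread, with a log2 change of -0.50 (95% confidence interval -0.76 to -0.23) and an adjusted p of 0.0515 by limma, just above the threshold. SAV1 was called in 5 of the 14 alternative analyses, with adjusted p from 2.28e-05 to 0.231 over all 14. Of its exon bases 14.9% overlap ATL1 on the opposite strand, where ATL1 had 3 to 6 reads per library. The library kit keeps strand, but whether the counting used it is not stated, so reads from overlapping genes on opposite strands may be mixed.

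MOB1B, an adaptor that activates LATS, gave 2.36 and 3.20 RPKM in the controls and 1.71 and 1.70 RPKM with TGF-β1. All TGF-β1 values were lower, but the controls differed widely between themselves. The log2 change was -0.56 (95% confidence interval -1.10 to -0.02), with an adjusted p of 0.186 by limma. DCK, on the same strand with 135 to 252 reads per library, shares 2.26% of the MOB1B exon bases. The relative MOB1A was far higher, at 20.4 and 23.4 RPKM in the controls and 21.8 and 19.3 RPKM with TGF-β1, and those groups overlapped.

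STK4, which encodes MST1, was at 7.75 and 7.19 RPKM in the controls and at 6.27 and 5.93 RPKM with TGF-β1. Those groups did not overlap, and the log2 change of -0.27 (-0.56 to 0.02) had an adjusted p of 0.228 by limma, and was -0.44 with scaling by total reads. STK3, which encodes MST2, was low, at 0.954 and 0.813 RPKM in the controls and 0.738 and 0.740 RPKM with TGF-β1, on 36 to 45 reads per library. With so few reads its interval was wide, from -0.79 to 0.47 around -0.16, and a moderate change in either direction was not detectable at this depth.

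LATS2, a kinase that phosphorylates YAP and TAZ, stood at 15.9 and 15.2 RPKM in the controls and at 12.5 and 14.4 RPKM with TGF-β1. The groups lay apart but close, with a log2 change of -0.20 (-0.47 to 0.06) and an adjusted p of 0.313 by limma, and it ranged from -0.38, with voom, to -0.10, without TGF-β1 library 1. LATS1 was lower in level, at 4.62 and 4.12 RPKM in the controls and 4.47 and 4.63 RPKM with TGF-β1. Its groups overlapped, with a log2 change of 0.05 (-0.30 to 0.41), a sign that turned under scaling by total reads.

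The co-activators TAZ and YAP bind TEAD factors and supply their activating domain. WWTR1, which encodes TAZ, was the higher of the pair in every library. It measured 34.0 and 40.0 RPKM in the controls and 44.7 and 46.5 RPKM with TGF-β1, so both treated libraries were higher. The log2 change was 0.30 (0.06 to 0.55), with an unadjusted p of 0.0251 and an adjusted p of 0.132 by limma. It was smaller with scaling by total reads (0.12), quantile normalisation (0.14), voom (0.11) and without control library 1 (0.19). YAP1 measured 8.41 and 9.61 RPKM in the controls and 8.69 and 8.69 RPKM with TGF-β1. Its TGF-β1 values lay between the controls, and the log2 change of -0.05 had an interval of -0.33 to 0.24 and an adjusted p of 0.846 by limma. A rise of YAP1 RNA by over 0.24 or a fall by over 0.33 on the log2 scale thus lies outside the interval. The opposite-strand transcript WWTR1-AS1, whose exons cover 9.45% of the WWTR1 exon bases, had 1 to 8 reads per library.

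All 4 TEAD factors, which bring YAP and TAZ to DNA, were expressed, and none was called in the main analysis. TEAD4 was highest in the controls, at 24.5 and 22.2 RPKM, and measured 19.2 and 19.8 RPKM with TGF-β1. TEAD2 went the other way, from 16.9 and 14.1 RPKM to 20.6 and 20.6 RPKM. For TEAD4 the log2 change was -0.25 (-0.47 to -0.04) with an unadjusted p of 0.0281, and for TEAD2 it was 0.41 (0.13 to 0.68) with an unadjusted p of 0.0128. Their adjusted p values by limma were 0.142 and 0.0901, and each kept its sign in all 14 alternatives. Scaling by total reads gave -0.43 for TEAD4 and 0.23 for TEAD2. The largest TEAD2 change over the alternatives was 0.53, without control library 1.

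TEAD3 overlapped between groups, at 15.3 and 16.8 RPKM in the controls and 20.2 and 16.7 RPKM with TGF-β1, with a log2 change of 0.19 (-0.12 to 0.49). TEAD1 was lowest of the family in each library, at 5.26 and 5.87 RPKM in the controls and 4.20 and 4.89 RPKM with TGF-β1. Both TEAD1 values with TGF-β1 were below both controls, and its adjusted p was 0.335 by limma. VGLL4, which competes with YAP for TEAD factors, was at 12.5 and 12.7 RPKM in the controls and 11.6 and 11.3 RPKM with TGF-β1, with an adjusted p of 0.421 by limma. ATG7 exons on the opposite strand cover 22.1% of the VGLL4 exon bases.

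**Figure D2:**
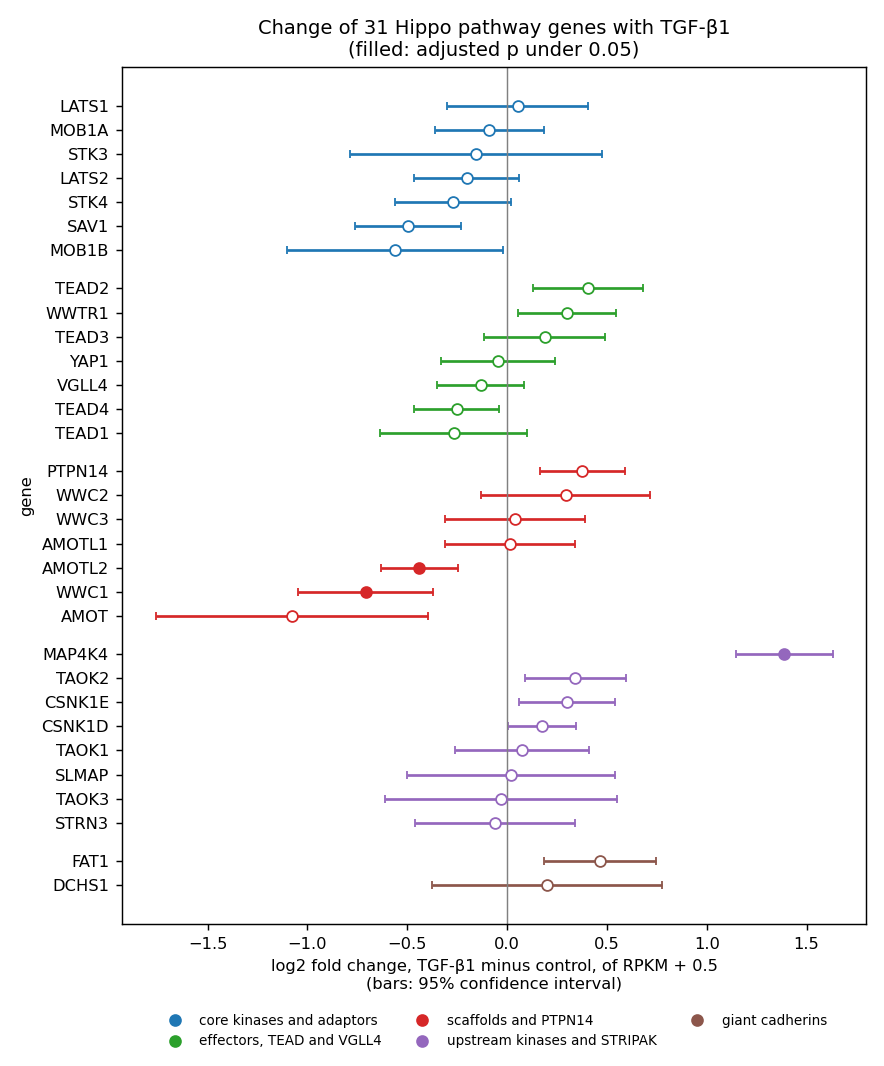
Log2 fold change of RPKM + 0.5, TGF-β1 minus control, for each of the 31 genes (x axis), with 95% confidence intervals from limma as bars, grouped and coloured by role. Filled points have an adjusted p under 0.05: MAP4K4 at 1.39, AMOTL2 at -0.44 and WWC1 at -0.71. AMOT lies further down than both, at -1.08, with an interval of -1.76 to -0.40.

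Among the scaffolds, 2 of 7 genes fell and none rose, against 3.0% lower and 6.12% higher over all tested genes. WWC1 lies on chromosome 5 (168291651 to 168472303). Its level was 9.64 and 10.4 RPKM in the controls and 5.38 and 6.52 RPKM with TGF-β1 (10.0 ± 0.519 against 5.95 ± 0.805, SD, n = 2 each), on 225 to 491 reads. The groups were far apart, and the log2 change of -0.71 (-1.05 to -0.37) had an adjusted p of 0.0382 by limma. The WWC1 call was lost when any 1 of the 4 libraries was left out, without the filter on low levels and without a variance trend, where the adjusted p reached 0.130. Its log2 change stayed between -0.94 and -0.58 over the 14 alternatives.

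WWC2 and WWC3, the paralogues of WWC1, were not called. WWC2 had both TGF-β1 values above the controls, at 3.87 and 4.87 RPKM against 3.51 and 3.41 RPKM, with an adjusted p of 0.360 by limma. WWC3 overlapped between groups, at 3.96 to 4.28 RPKM over the 4 libraries.

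AMOTL2, on chromosome 3 (134355874 to 134375479), was the most abundant of the 31 genes. It measured 66.1 and 66.2 RPKM in the controls and 46.1 and 51.3 RPKM with TGF-β1 (66.1 ± 0.0608 against 48.7 ± 3.62, SD, n = 2 each), on 1147 to 1860 reads. The controls were nearly identical and both TGF-β1 values were well below them. The log2 change was -0.44 (-0.63 to -0.25), with an adjusted p of 0.0300 by limma. As for WWC1, the call was lost when any 1 library was left out, without the filter and without the trend, where the adjusted p reached 0.159.

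AMOT, the founding angiomotin and a binder of YAP, had the lowest ratio of TGF-β1 to control of the 31 genes but few reads. Its values were 2.17 and 2.69 RPKM in the controls, on 62 and 107 reads, and 0.665 and 1.14 RPKM with TGF-β1, on 23 and 45 reads. The ratio of control to TGF-β1 means was 2.7 and the log2 change -1.08 (-1.76 to -0.40). With an adjusted p of 0.0755 by limma it did not pass, and it was called with scaling by total reads and with limma voom on recovered reads. AMOTL1 was level across the libraries, at 5.01 to 5.49 RPKM, with an interval of -0.31 to 0.34 around 0.02 and a sign that turned under each of the 3 other scalings.

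PTPN14, a phosphatase that binds YAP and promotes its retention in the cytoplasm, was at 21.6 and 22.5 RPKM in the controls and at 27.3 and 30.2 RPKM with TGF-β1. Both TGF-β1 values were higher, on 1371 to 2671 reads. The log2 change of 0.38 (0.16 to 0.59) had an adjusted p of 0.0588 by limma, and the gene was called in 2 of the 14 alternatives, as in the plot of changes by setting. Over the 14 the log2 change ranged from 0.20, with scaling by total reads, to 0.45.

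**Figure D3:**
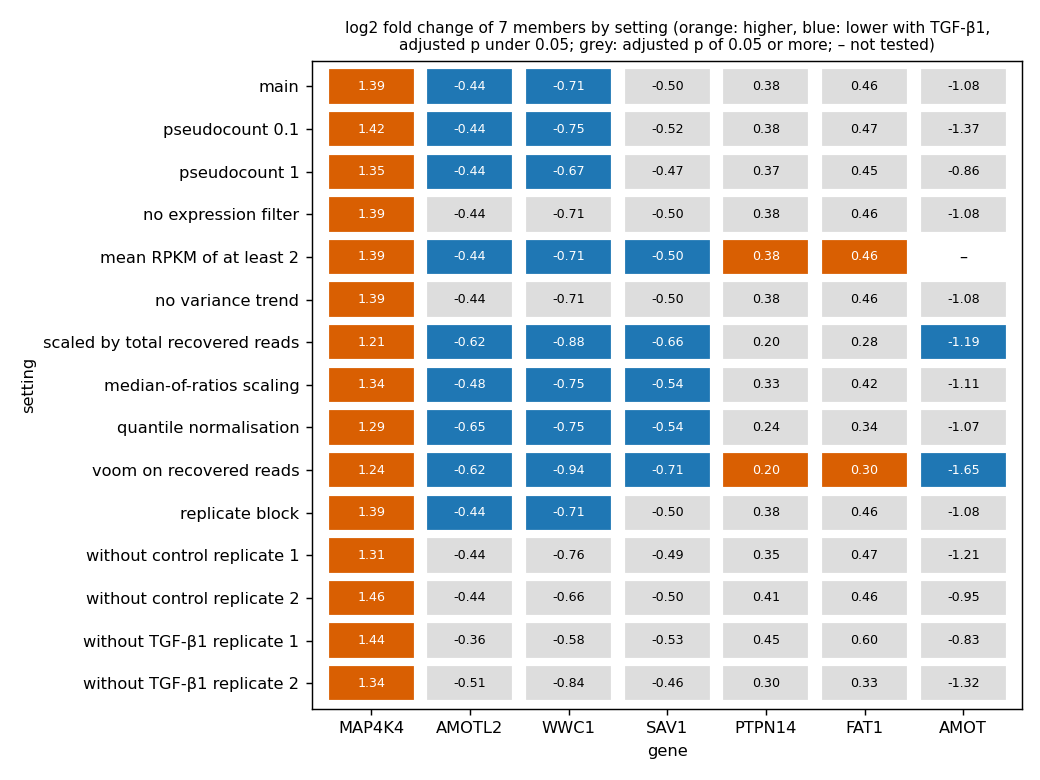
Log2 fold change (number in each cell) of 7 of the 31 genes (columns) under the main analysis and 14 alternatives (rows). Orange cells were called higher and blue cells lower at an adjusted p under 0.05, grey cells were not called, and a dash marks a gene not tested. The MAP4K4 column is orange throughout, while AMOTL2 and WWC1 are blue in the main analysis and in 8 of 14 alternatives. The 7 genes are the 3 called ones and SAV1, PTPN14, FAT1 and AMOT, the 4 others with the lowest adjusted p.

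Of 8 upstream kinases and STRIPAK genes, 1 rose (12.5%) and none fell, a share near the 9.12% called over all tested genes. MAP4K4 lies on chromosome 2 (101696850 to 101894689). It measured 9.41 and 10.5 RPKM in the controls and 25.9 and 27.8 RPKM with TGF-β1 (9.95 ± 0.763 against 26.8 ± 1.34, SD, n = 2 each), on 381, 589, 1285 and 1563 reads. The lower TGF-β1 value was far above the higher control. Its log2 change was 1.39 (1.14 to 1.63), with an adjusted p of 0.00319 by limma, and 97.5% of all tested genes changed less. MAP4K4 was called in all 14 alternatives, with log2 changes of 1.21 to 1.46 and adjusted p up to 0.0384. No other gene of the expression table overlapped its exons, and 0.216% of its 50-base words occurred in another gene.

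TAOK kinases phosphorylate MST1 and MST2, and TAOK2 was the most abundant of the 3. It was at 21.8 and 18.7 RPKM in the controls and at 26.5 and 25.0 RPKM with TGF-β1, so both treated libraries were higher. The log2 change of 0.34 (0.09 to 0.60) had an adjusted p of 0.109 by limma, and it was 0.16 with scaling by total reads. TAOK1, at 4.56 to 5.21 RPKM, and TAOK3, at 1.33 to 1.80 RPKM, overlapped between groups.

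Casein kinases 1δ and 1ε add the further phosphates that mark YAP and TAZ for degradation. CSNK1E was at 12.3 and 12.6 RPKM in the controls and at 14.6 and 16.3 RPKM with TGF-β1. Its groups lay apart, with a log2 change of 0.30 (0.06 to 0.54) and an adjusted p of 0.130 by limma, and the change was 0.12 with scaling by total reads. Of its 50-base words, 20.5% also occur in the read-through gene TPTEP2-CSNK1E, which had 0 or 1 read per library, so its count is uncertain by however the authors assigned shared reads. CSNK1D was at 30.2 and 29.6 RPKM in the controls and 33.2 and 34.4 RPKM with TGF-β1, with a log2 change of 0.17 (0.00 to 0.35) that became -0.01 with scaling by total reads. SLC16A3, on the opposite strand with 567 to 850 reads per library, covers 4.37% of the CSNK1D exon bases.

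STRN3 and SLMAP belong to STRIPAK, the phosphatase complex that removes activating phosphates from MST1 and MST2. Both overlapped between groups, at 3.14 to 3.66 RPKM and 1.62 to 1.91 RPKM, with log2 changes of -0.06 and 0.02. On the opposite strand COCH, with 509 to 676 reads per library against 57 to 85 for STRN3, covers 3.08% of the STRN3 exon bases. The intervals of STRN3 and SLMAP, -0.46 to 0.34 and -0.50 to 0.54, leave moderate changes undetectable at this depth.

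FAT1 and DCHS1 encode giant cadherins of the family that acts upstream of the pathway in flies. FAT1 was at 17.8 and 17.7 RPKM in the controls and at 22.5 and 27.1 RPKM with TGF-β1. Both TGF-β1 values were higher although they differed from each other, with a log2 change of 0.46 (0.18 to 0.74) and an adjusted p of 0.0690 by limma. The change was 0.28 with scaling by total reads. DCHS1 was at 1.90 and 1.45 RPKM in the controls and at 1.78 and 2.22 RPKM with TGF-β1, and these groups overlapped.

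Shares within a family do not depend on how a library is scaled, and they are given as a description. An exact permutation test of 2 against 2 libraries cannot give a p below 0.333. In the WWC family, WWC1 made up 56.4% and 58.1% of the summed RPKM in the controls, against 39.8% and 42.3% with TGF-β1. WWC2 went from a mean of 19.8% to 30.1% and WWC3 from 23.0% to 28.8%, each without overlap. WWC1 thus went from well over the sum of its paralogues to less than that sum.

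Among the TEAD factors, TEAD4 was the leading one in both controls, at 39.5% and 37.7% of the summed level, and held 29.9% and 31.9% with TGF-β1. TEAD2 held 27.2% and 23.9% in the controls, against 32.1% and 33.2% with TGF-β1, so it passed TEAD4 in both TGF-β1 libraries. TEAD1 averaged 9.22% and then 7.22%, and TEAD3 overlapped between groups. Their summed level was 60.5 ± 2.08 RPKM in the controls and 63.1 ± 1.64 RPKM with TGF-β1 (SD, n = 2 each), and the libraries of the groups overlapped.

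TAZ held 80.2% and 80.6% of the summed YAP and TAZ level in the controls, against 83.7% and 84.3% with TGF-β1. LATS2 held a mean of 78.1% of the LATS pair and then 74.7%, and MOB1A 88.8% of the MOB1 pair and then 92.3%. STK4 stayed near the same share of the MST pair, at 88.9% to 89.8% over the 4 libraries, with overlap. The angiomotin sum was 73.8 ± 0.121 RPKM in the controls and 54.9 ± 4.24 RPKM with TGF-β1 (SD, n = 2 each), a ratio of 0.744. AMOTL2 supplied 88.6% to 89.7% of that sum, while the AMOT share went from a mean of 3.29% to 1.62% and the AMOTL1 share from 7.09% to 9.65%.

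**Figure D4:**
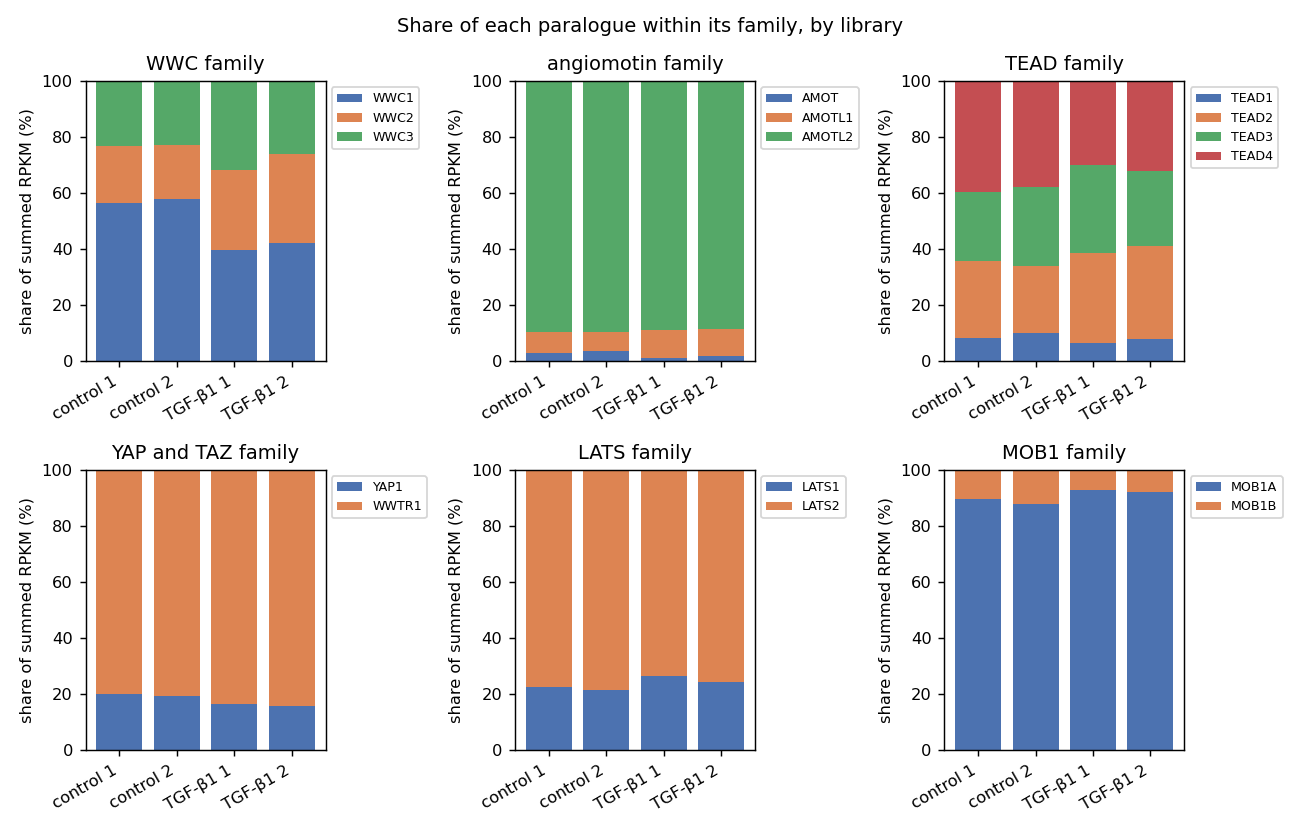
Share of each paralogue in the summed RPKM of its family (y axis, percent) in each of the 4 libraries (x axis), for 6 families. The WWC1 segment is 56.4% and 58.1% of its family in the controls, against 39.8% and 42.3% with TGF-β1. In the TEAD panel the TEAD4 segment is smaller and the TEAD2 segment larger in both TGF-β1 libraries than in either control.

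Beyond the 31 genes, 69 further pathway genes were listed in 5 groups, of which 59 were tested. Of the 59, 7 were called (11.9%), 4 higher and 3 lower, with a median log2 change of 0.02. That is close to the 9.12% called over all tested genes, 6.12% higher and 3.0% lower. In the polarity and junction group (15 tested), 2 genes rose and 1 fell. FRMD6 rose the most, from 6.91 and 7.40 RPKM to 40.4 and 41.8 RPKM, a log2 change of 2.44 with an adjusted p of 9.14e-04 by limma. CTNNA1, which encodes α-catenin, rose by 0.69 on the log2 scale, and CRB3, an apical polarity protein, fell by 0.54. The CRB3 call was lost in 6 of the 14 alternatives, with log2 changes of -0.75 to -0.48, and the CTNNA1 call in 2.

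AJUBA, a LIM protein that inhibits LATS, was the only call among 8 LIM and RASSF genes, and fell from 40.1 and 40.3 RPKM to 16.7 and 16.5 RPKM. Among 16 further STRIPAK and phosphatase genes PPP2R1A, the scaffold subunit of protein phosphatase 2A, rose by 0.35 on the log2 scale. That call was lost in 8 of the 14 alternatives. Of 9 related kinases tested, NUAK1 rose by 1.55 and NUAK2 fell by 0.95 on the log2 scale. None of 11 genes for YAP and TAZ turnover, retention and cofactors was called, and the lowest adjusted p, 0.0917 by limma, belonged to YWHAB, a 14-3-3 protein that retains phosphorylated YAP.

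Of 23 common YAP and TAZ target genes, 3 of which are among the 31, 21 were tested, 8 fell and 1 rose (42.9% called), with a median log2 change of -0.33. Over all tested genes 9.12% were called, 3.0% lower and 6.12% higher, with a median of 0.03. Without the 3 shared genes, 7 of 18 fell and 1 rose. GADD45A, a stress-response gene, fell from 24.7 and 23.2 RPKM to 11.6 and 11.5 RPKM, while IGFBP3, which binds insulin-like growth factors, rose from 18.0 and 19.1 RPKM to 39.3 and 40.2 RPKM. AJUBA, NUAK2 and AMOTL2 count among the 8 as well. The paired matricellular genes CCN1 and CCN2, chosen after their values were seen, differed from each other. CCN1 fell from 212 and 243 RPKM to 97.8 and 116 RPKM, whereas CCN2 stood at 40.4 and 52.1 RPKM in the controls and 58.8 and 69.1 RPKM with TGF-β1, with an adjusted p of 0.125 by limma.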

How the data were processed

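Expression was measured by RNA sequencing in 4 HK-2 libraries, 2 per group, grouped by their titles. The authors deposited RPKM values. Per the submitters' processing notes bcl2fastq 2.20.0.422, STAR 2.7.1a, DESeq2 and hg38 were used, with no roles stated; annotation release, strand setting and RPKM tool: not given in the sources used here. Row identifiers were matched to symbols (25312 of 25609) and to GENCODE 29 for positions and exon lengths. RPKM times exon length gave whole reads plus 0.5, times a constant of each library, within 0.01 read for 100% of 23853 genes of the same version. For 1645 other genes, TEAD3 and STK3 included, the length was inferred from the values. Reads were recovered for 25498 genes.

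Genes with a mean of at least 0.5 RPKM were tested by limma 3.58.1 (R 4.3.3) on log2(RPKM + 0.5), which understates changes of low genes. The fit used lmFit and eBayes with a variance trend and no covariate, with Benjamini-Hochberg adjustment over all tested genes. It was also run on simulated data, whose changes were larger than most of those seen in the 31 genes and spared genes on few reads. That run does not bear on small changes or on genes with few reads. Fold values are ratios of mean RPKM. The members and gene lists were chosen with earlier results of these data known. All 31 members are accounted for. Values by library are given for those with an unadjusted p under 0.05, the MST, LATS, YAP, TAZ and TEAD genes, and others where useful; from each other list, called genes were named up to 3 per direction, or the 1 with the smallest p. Protein sequences were not used here. Some items that meet these rules are not reported here. Alternatives covered pseudocount, filter, trend, scaling, voom on recovered reads, a replicate block and leaving out each library.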

Additional observations from a re-analysis of the deposited data

How the results depend on the processing

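Of the 31 genes, 20 kept the sign of their change in every alternative and 11 changed it in at least 1. Of the 31, 12 were called in some alternative but not in the main analysis, and 16 were never called. The count of 3 called became 1 without the filter or without the variance trend, 6 with a minimum of 2 RPKM, 5 with scaling by total reads and 14 (3 higher, 11 lower) with limma voom on recovered reads; leaving out 1 library gave 1 to 2. The other pathway genes went from 7 to 3 without the trend, 10 with the minimum of 2 RPKM, 10 with scaling by total reads and 21 with voom, and leaving out 1 library gave 4 to 7. The YAP and TAZ targets went from 9 to 4 without the trend and 16 with voom, and leaving out 1 library gave 6 to 9. Over all tested genes voom called 3975, of which 29.6% were higher, against 1513, and moved the median change by -0.18; 424 were called without the trend, 977 without the filter, and 999, 1138, 739 and 574 without control library 1, control library 2, TGF-β1 library 1 and TGF-β1 library 2. Higher genes made up 50.4% of 1384 calls after quantile normalisation. A fit that leaves out a library assumes that the lone library of its group varies like the other group. The cause of these differences was not tested.

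None of the 11 genes whose sign turned was called in the main analysis. With scaling by total reads the log2 change was -0.11 for LATS1, -0.12 for WWC3, -0.15 for AMOTL1, -0.0895 for TAOK1, -0.12 for SLMAP and -0.0056 for CSNK1D. With voom it was -0.11 for LATS1, -0.14 for WWC3, -0.15 for AMOTL1, -0.10 for TAOK1, -0.13 for SLMAP, -0.0022 for CSNK1D and -0.0035 for TEAD3. Median-of-ratios scaling gave -0.00041 for WWC3, -0.0254 for AMOTL1 and -0.0158 for SLMAP. Quantile normalisation gave -0.0218 for AMOTL1 and 0.0122 for TAOK3. Leaving out 1 library gave -0.0211 to 0.127 for LATS1, -0.18 to 0.0048 for MOB1A, -0.138 to 0.0449 for YAP1, -0.0017 to 0.0801 for WWC3, -0.0397 to 0.0704 for AMOTL1, -0.20 to 0.14 for TAOK3, -0.15 to 0.03 for STRN3 and -0.0736 to 0.112 for SLMAP.

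Same-numbered libraries did not deviate together beyond a weak correlation of 0.026 between the replicate differences of the groups, so the numbers were not taken to pair samples. With the replicate block, 3 of the 31 genes, 7 other pathway genes and 11 targets were called, and 1344 genes in all. Family shares computed from reads per kilobase differed from those given by less than the spread between replicates. Genes on few reads, such as STK3 and AMOT, are limited by depth.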
